A study of Mus musculus with 24 samples.

Results

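The genes described here are 42 genes linked to the presynaptic terminal, chosen by name for synaptic vesicles, release sites and synaptic adhesion. The list was chosen with earlier results of these data known, and its neuroligins, Nlgn1 and Nlgn2, are mainly postsynaptic. The genes were looked up by Ensembl identifier among the 53946 genes of a deposited count table. All 42 were found in the table. The libraries came from mouse ventral otocysts, the part of the embryonic ear that holds the cochlea, taken at embryonic day 14.5 from embryos of the strain C57BL/6J x 129X1/SvJ, and the tissue of 3 to 7 embryos that shared a genotype was pooled for each library. TRAP (translating ribosome affinity purification) recovers mRNA bound to ribosomes that carry a tagged protein, here L10a fused to eGFP and expressed in cells of the Fgf20-Cre lineage, that is, cells in which the Cre recombinase driven in Fgf20-expressing cells has acted and their descendants. There were 8 TRAP libraries from mut embryos (Fgf20-/-), 8 TRAP libraries from het embryos (Fgf20+/-), 4 pre-TRAP libraries from mut embryos and 4 pre-TRAP libraries from het embryos. The het embryos lacked 1 functional copy of Fgf20, so they are not wild type, and the labels give the same immunoprecipitation text for TRAP and pre-TRAP, so how pre-TRAP RNA was taken is not stated beyond its name. Each group was split evenly over experiment 1 and experiment 2, which the labels call the batch.

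A presynaptic terminal stores neurotransmitter in vesicles and releases it when calcium enters. SNARE proteins on the vesicle and on the cell membrane zip together to fuse them, complexins hold and prime that step, synaptotagmins sense calcium, and scaffold proteins of the active zone keep vesicles beside calcium channels. In the ear, hair cells release glutamate at ribbon synapses onto neurons of the spiral ganglion, whose central axons in turn release glutamate in the cochlear nucleus. At the stage sampled here, the neurons have left the otic epithelium and are extending processes, and hair cells are only beginning to form.

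Promoters of 4 members are shown because of their place in the TRAP against pre-TRAP comparison below: Sncg, Syn1 and Cplx1 had the largest increases and Dnm1 was 1 of the 3 members that were lower in TRAP. Each sequence is the 250 bases before the gene's start, 5′ to 3′ on the gene's strand, from RefSeq, and capitals mark motif matches on either strand.
Sncg promoter (GRCm38.p6, chr14:34374670-34374919, minus strand): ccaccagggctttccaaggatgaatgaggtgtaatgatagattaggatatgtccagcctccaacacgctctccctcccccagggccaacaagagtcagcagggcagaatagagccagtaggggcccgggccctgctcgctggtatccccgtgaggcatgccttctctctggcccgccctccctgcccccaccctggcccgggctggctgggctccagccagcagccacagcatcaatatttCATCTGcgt
Syn1 promoter (GRCm38.p6, chrX:20920919-20921168, minus strand): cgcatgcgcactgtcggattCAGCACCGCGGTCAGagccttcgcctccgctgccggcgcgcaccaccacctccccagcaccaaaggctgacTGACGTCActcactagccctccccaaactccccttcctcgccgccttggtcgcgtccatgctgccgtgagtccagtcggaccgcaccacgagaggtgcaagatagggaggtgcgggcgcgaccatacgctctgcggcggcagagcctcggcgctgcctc
Cplx1 promoter (GRCm38.p6, chr5:108550028-108550277, minus strand): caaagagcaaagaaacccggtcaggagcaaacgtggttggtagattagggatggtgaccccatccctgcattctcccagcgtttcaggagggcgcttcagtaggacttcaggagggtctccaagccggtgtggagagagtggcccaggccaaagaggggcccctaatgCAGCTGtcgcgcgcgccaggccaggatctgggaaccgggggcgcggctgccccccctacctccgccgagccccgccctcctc
Dnm1 promoter (GRCm38.p6, chr2:32353330-32353579, minus strand): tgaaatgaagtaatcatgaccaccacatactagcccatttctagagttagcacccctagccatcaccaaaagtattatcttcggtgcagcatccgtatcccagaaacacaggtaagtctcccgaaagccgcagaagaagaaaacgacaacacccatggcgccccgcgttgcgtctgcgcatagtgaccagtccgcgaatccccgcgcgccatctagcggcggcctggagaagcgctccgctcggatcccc
The motifs searched on both strands were the core of the RE1 element that the neuronal gene repressor REST binds (CAGCACC, then 2 free bases, GG, 1 free base and CAG), TGACGTCA, the cAMP response element, and the E-boxes CAGCTG and CAGATG, bound by basic helix-loop-helix factors. They were picked with results of these data known. The RE1 letters lay 230 to 216 bases before the start of Syn1, whose promoter also held TGACGTCA at 159 to 152 bases. CAGCTG lay 82 to 77 bases before the start of Cplx1, and CAGATG, read on the other strand as CATCTG, lay 9 to 4 bases before the start of Sncg. The Dnm1 window held none of the 4 motifs, and no match overlapped another. RefSeq promoters were matched for 35 of the 42 members, with 47 start sites. The RE1 letters were in 1 of the 47 promoters of members, that of Syn1, against 0.0517% of 32851 mouse promoters of this length. TGACGTCA was in the same single promoter of a member and in 1.55% of all promoters. CAGCTG was in 21.3% of the promoters of members and 13% of all promoters, and CAGATG in 10.6% of the promoters of members and 14.4% of all. A match describes letters, not a bound site.

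Sequencing depth was 30745166 to 53374796 counts per library, and TMM factors, which correct for RNA composition, ran from 0.801 to 1.142. The targeted gene followed its labels: Fgf20 was at 0.825 to 3.02 CPM (a gene's count scaled to the total of its library after correction by that factor) in TRAP mut libraries and 3.11 to 5.92 CPM in TRAP het libraries, and at 0.139 to 0.289 CPM in pre-TRAP mut libraries and 0.382 to 1.72 CPM in pre-TRAP het libraries, with no overlap in either method. Its log2 fold change was -0.94 ± 0.22 (SE) in TRAP, with an adjusted p of 0.188 in edgeR's quasi-likelihood test, and which part of the gene the allele removes is not given here. Neuron markers were present in every library, with the 14 markers summing to 3685 to 7040.3 CPM in TRAP and 691 to 1102 CPM in pre-TRAP. TRAP replicates 3, 4, 5 and 6 had the highest mesenchyme marker levels of the TRAP libraries (mean log2 level 3.96 to 4.49), and replicate 3 also had the lowest neuron level (7.27). The counts of TRAP against pre-TRAP and of genotype in TRAP are given with and without these 4 libraries.

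TRAP against pre-TRAP asks which transcripts are over-represented in the tagged ribosomes. A gene was called when its Benjamini-Hochberg adjusted p in edgeR's quasi-likelihood test over all genes tested was under 0.05. Most members were higher in TRAP: of 40 with enough counts to test, 31 were higher, 3 were lower and 6 were not called. The comparison was over 16 TRAP and 8 pre-TRAP libraries. Of the 31, 1 (Slc17a7) passed the count filter through TRAP libraries alone, which favours this direction, so its call is not independent of the filter. Over all 24242 genes tested, 27.9% were called higher and 31.2% lower. The median log2 fold change was 1.80 for the 40 tested members and -0.01 for all genes tested. The list was chosen with earlier results of these data known, so this contrast is descriptive and not an independent test. For 24 of the 40, every TRAP library was above every pre-TRAP library, as it was for 6.33% of all genes tested. For 2 members every TRAP library was below every pre-TRAP library, against 8.32% of all genes, and 14 members overlapped. Without TRAP replicates 3, 4, 5 and 6 the counts were again 31 higher and 3 lower. In bulk RNA, fewer cells of a type and less RNA per cell cannot be told apart, and here neither can be told apart from a difference in ribosome loading. The other cell type markers moved between the methods too. All 14 neuron markers were higher in TRAP (median log2 fold change 2.63). Of 13 hair cell markers tested, 10 were higher (median 2.88), 2 of them genes that passed the count filter through TRAP libraries alone, and the hair cell list summed to 310.3 to 713 CPM in TRAP and 72.8 to 96 CPM in pre-TRAP. Of 10 otic epithelium markers 8 were higher and 1 was lower (median 0.61). Of 12 periotic mesenchyme markers 10 were lower and 1 was higher (median -2.12), and all 6 erythroid markers were lower (median -3.28). No neuron or hair cell marker was at 0 in all libraries of a method, and the part of these cell types in the presynaptic difference was not tested.

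**Figure D1:**
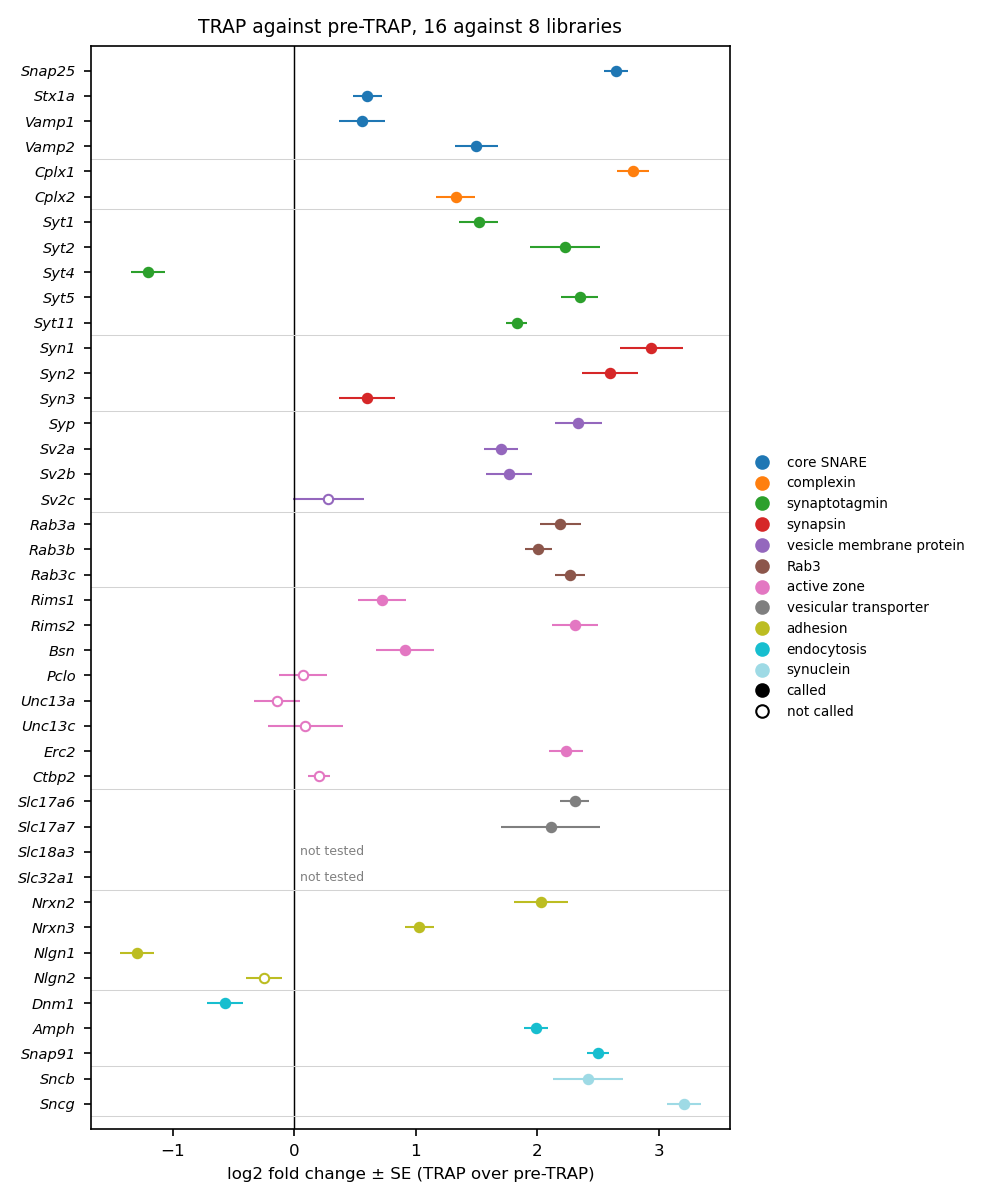
Log2 fold change of each member in TRAP over pre-TRAP, with its standard error, over 16 TRAP and 8 pre-TRAP libraries; filled points were called at an adjusted p under 0.05 and open points were not, and colours and grey lines separate the roles. Most points lie to the right of 0, up to 3.21 for Sncg, and 3 filled points lie to the left, Nlgn1, Syt4 and Dnm1.

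The counts by role given from here on cover few genes each and were not tested against the shares over all genes. Those shares were 27.9% called higher and 31.2% lower, and 6.33% with every TRAP library above every pre-TRAP library. The core SNARE proteins were all higher in TRAP (4 of 4), but by different amounts. Snap25, a SNARE anchored on the cell membrane, ranged from 75.3 to 166 CPM with a median of 117 in TRAP, and from 15.5 to 25.7 CPM with a median of 17.4 in pre-TRAP. The lowest TRAP library was well above the highest pre-TRAP library, and the log2 fold change was 2.65 ± 0.10 (6.28-fold, adjusted p = 2.03e-17). The vesicle SNARE Vamp2 was at 42.3 to 127 CPM in TRAP and 20.7 to 38.1 CPM in pre-TRAP, again without overlap (1.50 ± 0.18). The membrane SNARE Stx1a and the vesicle SNARE Vamp1 were each under 2-fold higher, at 0.60 ± 0.12 and 0.56 ± 0.19, and their groups overlapped. The Vamp1 call ended in either experiment or either genotype alone, with adjusted p of 0.0917 to 0.131, and with limma voom (0.0602). Both complexins were higher. Cplx1 was at 44.5 to 72.6 CPM in TRAP, median 56.2, and 4.34 to 11.3 CPM in pre-TRAP, median 8.39, with no overlap and a log2 fold change of 2.79 ± 0.13 (6.9-fold, adjusted p = 1.58e-15). Cplx2 rose less, by 1.33 ± 0.16, and 15 of its 16 TRAP libraries were above every pre-TRAP library.

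Of the 5 synaptotagmins, 4 were higher in TRAP and Syt4 was lower. Syt5, a calcium-binding vesicle protein, was at 8.86 to 16.7 CPM in TRAP, median 11.5, and 1.65 to 3 CPM in pre-TRAP, median 2.34 (log2 fold change 2.35 ± 0.15, adjusted p = 3.72e-13). The fast calcium sensors Syt1 and Syt2 were higher by 1.52 ± 0.16 and 2.23 ± 0.29, and Syt11, a form that does not bind calcium, by 1.83 ± 0.09. In all 4 of these genes every TRAP library was above every pre-TRAP library. Syt4, which has an altered calcium-binding site and sits on dense-core and other vesicles, went the other way: 1.06 to 2.24 CPM with a median of 1.57 in TRAP, and 2.97 to 4.32 CPM with a median of 3.8 in pre-TRAP. Its groups did not overlap, and the log2 fold change was -1.21 ± 0.14 (2.31-fold lower, adjusted p = 4.71e-08).

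**Figure D2:**
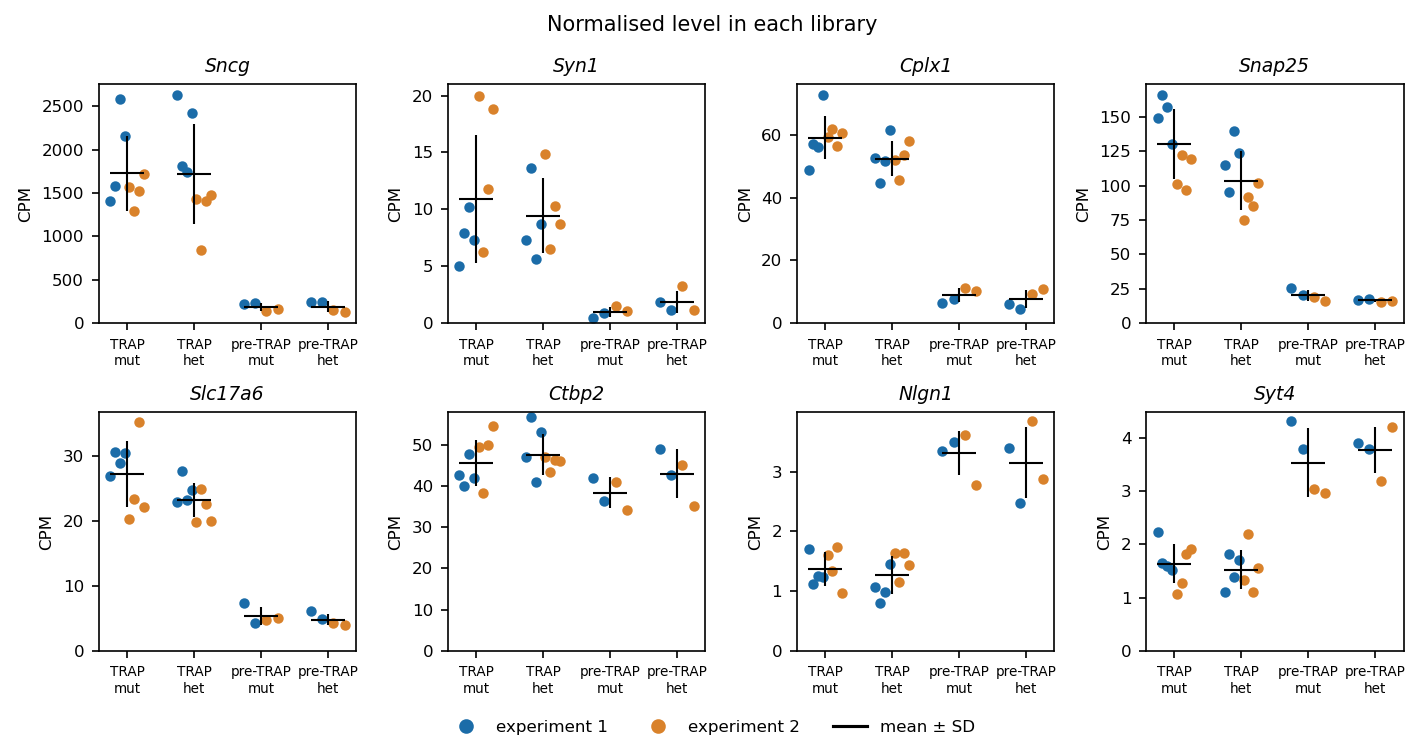
CPM of 8 members in each library, by group, with experiment 1 in blue, experiment 2 in orange and the mean ± SD of the group in black (n = 8 for each TRAP group and 4 for each pre-TRAP group). In Sncg, Syn1, Cplx1, Snap25 and Slc17a6 all TRAP libraries lie above all pre-TRAP libraries, in Nlgn1 and Syt4 all lie below, and Ctbp2 overlaps between the methods.

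The synapsins, which tether vesicles to one another in a reserve pool, were all higher. Syn1 was at 5.04 to 20 CPM in TRAP, median 8.68, and 0.434 to 3.22 CPM in pre-TRAP, median 1.17. No pre-TRAP library reached the lowest TRAP library, and the log2 fold change was 2.94 ± 0.26 (7.7-fold, adjusted p = 2.58e-10). Syn2 was at 12.8 to 42.2 CPM in TRAP, median 24, and 2.48 to 6.83 CPM in pre-TRAP, median 4.3, also without overlap (2.60 ± 0.23, adjusted p = 3.14e-10). Syn3, the early developmental form, was at 0.619 to 2.6 CPM in TRAP and 0.451 to 1.57 CPM in pre-TRAP; its difference of 0.60 ± 0.23 lost its call in either experiment alone, in either genotype alone and without TRAP replicates 3, 4, 5 and 6 (adjusted p 0.0503 to 0.29). Each of the 3 synapsin genes overlaps other coding genes in the RefSeq annotation, Araf and Timp1 for Syn1, Timp4 for Syn2, and Fbxo7 and Timp3 for Syn3. These overlaps are of whole gene spans, and the strand setting of the counting is not given. Whether reads of such neighbours were counted as synapsin reads could therefore not be checked. The same holds for Syt1, Unc13a, Ctbp2 and Slc18a3.

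Of the 4 vesicle membrane proteins, 3 were higher. Syp, the abundant vesicle protein synaptophysin, was at 5.13 to 12.3 CPM in TRAP, median 7.66, and 0.959 to 2.24 CPM in pre-TRAP, median 1.58 (log2 fold change 2.34 ± 0.19, adjusted p = 4.05e-11). Sv2a and Sv2b, transporter-like glycoproteins of the vesicle, were higher by 1.70 ± 0.14 and 1.77 ± 0.19, each without overlap. Their relative Sv2c was at 0.406 to 2.96 CPM in TRAP and 0.421 to 1.52 CPM in pre-TRAP, with a difference of 0.28 ± 0.29 that was not called. The 3 Rab3 genes, small GTPases that dock vesicles, were higher by similar amounts. Rab3a was at 46 to 129 CPM in TRAP and 13.2 to 25.7 CPM in pre-TRAP (2.19 ± 0.17), Rab3b differed by 2.01 ± 0.11 and Rab3c by 2.27 ± 0.12. None of the 3 overlapped between the methods.

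Of the 8 active zone genes, 4 were higher, none was lower and 4 were not called, against 27.9% higher and 31.2% lower of all genes. Rims2, a scaffold that binds Rab3 on the vesicle and calcium channels in the membrane, was at 8.11 to 18.4 CPM in TRAP, median 12.7, and 1.72 to 3.83 CPM in pre-TRAP, median 2.55 (log2 fold change 2.31 ± 0.19, adjusted p = 4.89e-11). Erc2, which links scaffold proteins, was at 14.1 to 26.9 CPM in TRAP and 3.39 to 5.35 CPM in pre-TRAP (2.24 ± 0.14). In both genes the methods did not overlap. Rims1 and Bsn, the large scaffold bassoon, were higher by 0.72 ± 0.20 and 0.91 ± 0.24 with overlapping groups. Both calls ended in experiment 1 alone, with adjusted p of 0.0595 for Rims1 and 0.0505 for Bsn, and in het libraries alone, with 0.124 and 0.0964. Pclo, the scaffold piccolo, differed by 0.07 ± 0.20, the vesicle priming factor Unc13a by -0.14 ± 0.19 and its relative Unc13c by 0.09 ± 0.31; none was called. Ctbp2 encodes a transcriptional co-repressor and, from another promoter, the ribbon protein RIBEYE, and counts per gene do not separate them. It was at 38.3 to 56.7 CPM in TRAP, median 46.6, and 34.1 to 49 CPM in pre-TRAP, median 41.4. These ranges overlapped widely, and the difference of 0.20 ± 0.09 missed the threshold (adjusted p = 0.0528), but was called by DESeq2 (0.0465), in experiment 2 alone (0.047) and without TRAP replicates 3, 4, 5 and 6 (0.0292).

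Vesicular transporters load the neurotransmitter and so mark what a terminal can release. Slc17a6, the vesicular glutamate transporter VGLUT2, was at 19.8 to 35.2 CPM in TRAP, median 24.1, and 3.98 to 7.37 CPM in pre-TRAP, median 4.87. The methods did not overlap, and the log2 fold change was 2.31 ± 0.12 (4.96-fold, adjusted p = 4.70e-15). Slc17a7, the glutamate transporter VGLUT1, was much nearer the detection floor, with 3 to 63 counts per library in TRAP and 3 to 12 in pre-TRAP. It passed the count filter through the TRAP libraries, where 14 of 16 were above every pre-TRAP library (2.11 ± 0.41). Passing in this way favours a higher level there, so its call is not independent of the filter. Slc18a3, the acetylcholine transporter, had no count in any of the 8 pre-TRAP libraries and at most 3 counts in a TRAP library, with 9 of 16 TRAP libraries holding any; a count of 0 allows up to 3 counts in a library, counting error only. Slc32a1, the GABA and glycine transporter, had a count in 5 of 16 TRAP libraries and 1 of 8 pre-TRAP libraries. Neither passed the filter on low counts. Without a filter, Slc18a3 was called higher in TRAP (adjusted p = 0.0161) and Slc32a1 was not called (adjusted p = 0.209); no fold is given, since with so few counts it depends on the prior count of the fit.

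Of the 4 adhesion genes, 2 were higher, 1 was lower and 1 was not called, against 27.9% higher and 31.2% lower of all genes. The presynaptic neurexins were higher: Nrxn2 was at 3.57 to 15.6 CPM in TRAP and 0.888 to 3.02 CPM in pre-TRAP (2.03 ± 0.22), and Nrxn3 at 4.55 to 10.2 CPM in TRAP and 2.34 to 4.08 CPM in pre-TRAP (1.03 ± 0.12), both without overlap. The neuroligins are their partners across the synapse and are mainly postsynaptic. Nlgn1, the form of excitatory synapses, was at 0.793 to 1.73 CPM in TRAP, median 1.29, and 2.48 to 3.84 CPM in pre-TRAP, median 3.37. All TRAP libraries were below all pre-TRAP libraries, and the log2 fold change of -1.30 ± 0.14 was the most negative of the tested members (2.45-fold lower, adjusted p = 1.39e-08). Nlgn2, the form of inhibitory synapses, differed by -0.25 ± 0.15 and was not called, though limma voom called it lower (-0.32, adjusted p = 0.0322).

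Vesicle membrane is taken back after release by clathrin-mediated endocytosis. Snap91, the neuronal clathrin adaptor AP180, was at 53 to 99.5 CPM in TRAP, median 79.5, and 10.1 to 17.1 CPM in pre-TRAP, median 12.7 (log2 fold change 2.50 ± 0.09, adjusted p = 1.30e-17). Amph, the membrane-bending protein amphiphysin, differed by 1.99 ± 0.10, and neither gene overlapped between the methods. Dnm1, the neuronal dynamin that cuts the vesicle free, was lower instead, at 7.87 to 21.5 CPM in TRAP, median 12, and 14.6 to 30.2 CPM in pre-TRAP, median 16.2. Its groups overlapped, and the difference of -0.57 ± 0.15 (adjusted p = 0.00184) was -0.30 in experiment 2 alone and -0.29 in mut libraries alone, where it was not called (adjusted p 0.258 and 0.0974). Pre-TRAP het replicates 17 and 19 were far above the other pre-TRAP libraries for Dnm1, at 28.7 and 30.2 CPM, against 14.6 to 18.5 CPM in the rest.

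The synucleins are small proteins that bind vesicle membrane. Sncg, gamma-synuclein, which is abundant in peripheral sensory neurons, had the greatest difference of the tested members: 841 to 2626 CPM with a median of 1571 in TRAP, and 122 to 248 CPM with a median of 188 in pre-TRAP. Its log2 fold change was 3.21 ± 0.14 (9.26-fold, adjusted p = 4.45e-16), at 3.08 ± 0.21 in experiment 1 and 3.35 ± 0.18 in experiment 2. Sncb, beta-synuclein, was at 0.814 to 2.48 CPM in TRAP and 0.0561 to 0.621 CPM in pre-TRAP, again without overlap (2.42 ± 0.29). The 10 members with the largest increases among those with at least 2 CPM on average in TRAP were called in either experiment and in either genotype alone, as were Nlgn1 and Syt4.

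A wider list of 77 other presynaptic genes gave a smaller shift. The median log2 fold change of the 73 that could be tested was 0.80, against -0.01 for all genes tested. In TRAP, 49 of the 73 were higher and 9 were lower, against 27.9% and 31.2% of all genes tested. Of these calls, 3 higher ones are of genes that passed the count filter through TRAP libraries alone. Also, 1 lower one is of a gene that passed through pre-TRAP libraries alone. The filter favours these directions, so these calls are not independent of it. The greatest differences were in Syt13, a synaptotagmin that does not bind calcium (2.91 ± 0.20), Rimbp2, which binds Rims proteins and calcium channels (2.72 ± 0.26), the neurite growth gene Gprin1 (2.63 ± 0.20) and the small active zone gene Rims3 (2.62 ± 0.20). Among the genes lower in TRAP was the SNARE-binding gene Stxbp6 (-1.55 ± 0.10), named after its value was seen. By role, 10 of 14 calcium sensor genes and 11 of 15 active zone genes tested were higher, against 5 of 11 SNARE and fusion genes, where general fusion factors such as Napa (-0.08 ± 0.11) and Nsf (-0.41 ± 0.10, lower) are also counted. Otof, the calcium sensor of hair cell release, was at 1.55 ± 0.53 CPM in TRAP and 0.413 ± 0.167 CPM in pre-TRAP (SD, n = 16 and 8), and it stands on the hair cell marker list as well.

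**Figure D3:**
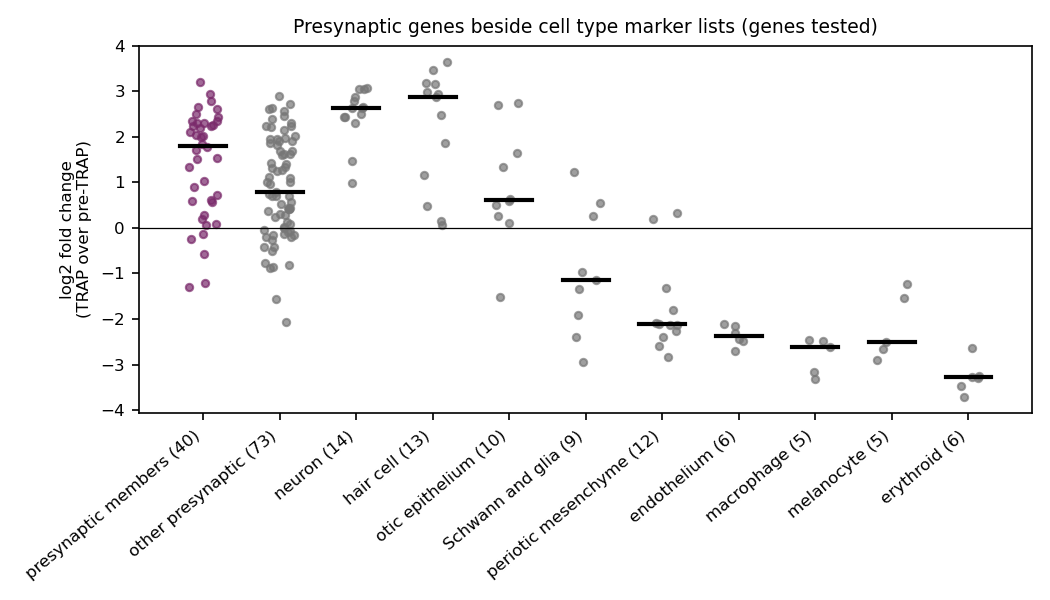
Log2 fold change in TRAP over pre-TRAP of each tested gene of the 42-member list, the other presynaptic genes and 9 cell type marker lists, with the number tested in parentheses and a black bar at the median. The members' median of 1.80 lies between that of the otic epithelium markers, 0.61, and that of the neuron markers, 2.63, while the endothelium, macrophage, melanocyte and erythroid genes lie below 0.

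Genotype asks whether these transcripts differ when Fgf20, a ligand needed for hair cell and supporting cell development, is lost. No member was called in TRAP, where 8 mut were compared with 8 het libraries. Of all 21577 genes tested, 0.0185% were called higher and 0.0556% lower. At an unadjusted p under 0.05 there were 4 of 40 members, against 3.77% of all genes, and DESeq2 and limma voom also called no member. The log2 fold changes of the 40 tested members ran from -0.63 to 0.51 with a median of 0.06, against -0.02 for all genes, and 25 were positive and 15 negative. With the neuron marker level of each library as a covariate, the median was -0.12 and 14 were positive, against a median of -0.02 for all genes. In pre-TRAP the same covariate gave a median of -0.16 and 13 positive, as without it. The mean neuron level was 7.93 in TRAP mut and 7.77 in TRAP het libraries (SD 0.16 and 0.25). The part of neuron content in the genotype difference was not tested. Without TRAP replicates 3, 4, 5 and 6 no member was called and the median was 0.03.

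The members with the smallest unadjusted p in TRAP were Nrxn3, Snap25, Snap91, Amph and Sv2c. Nrxn3 was at 6.05 to 10.2 CPM in mut libraries, median 8.15, and 4.55 to 6.62 CPM in het libraries, median 5.39. Mut replicates 4 and 16 lay inside the het range, and the difference was 0.51 ± 0.13 on the log2 scale (unadjusted p = 0.00113, adjusted p = 0.369), at 0.42 ± 0.21 in experiment 1 and 0.62 ± 0.21 in experiment 2. Snap25 was at 97 to 166 CPM in mut libraries, median 126, and 75.3 to 139.9 CPM in het libraries, median 98.6 (0.31 ± 0.11, adjusted p = 0.91). Snap91 was the other way round, at 53 to 85.2 CPM in mut libraries, median 65.5, and 68.5 to 99.5 CPM in het libraries, median 82.7 (-0.27 ± 0.09, adjusted p = 0.912). The genotypes overlapped in both. Amph differed by 0.25 ± 0.11 and Sv2c by -0.63 ± 0.35, each with an adjusted p of 1 and overlapping genotypes. In Sv2c the het group held the 2 highest libraries, replicates 9 and 11 at 2.66 and 2.96 CPM, and its difference was -0.37 without replicate 11.

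**Figure D4:**
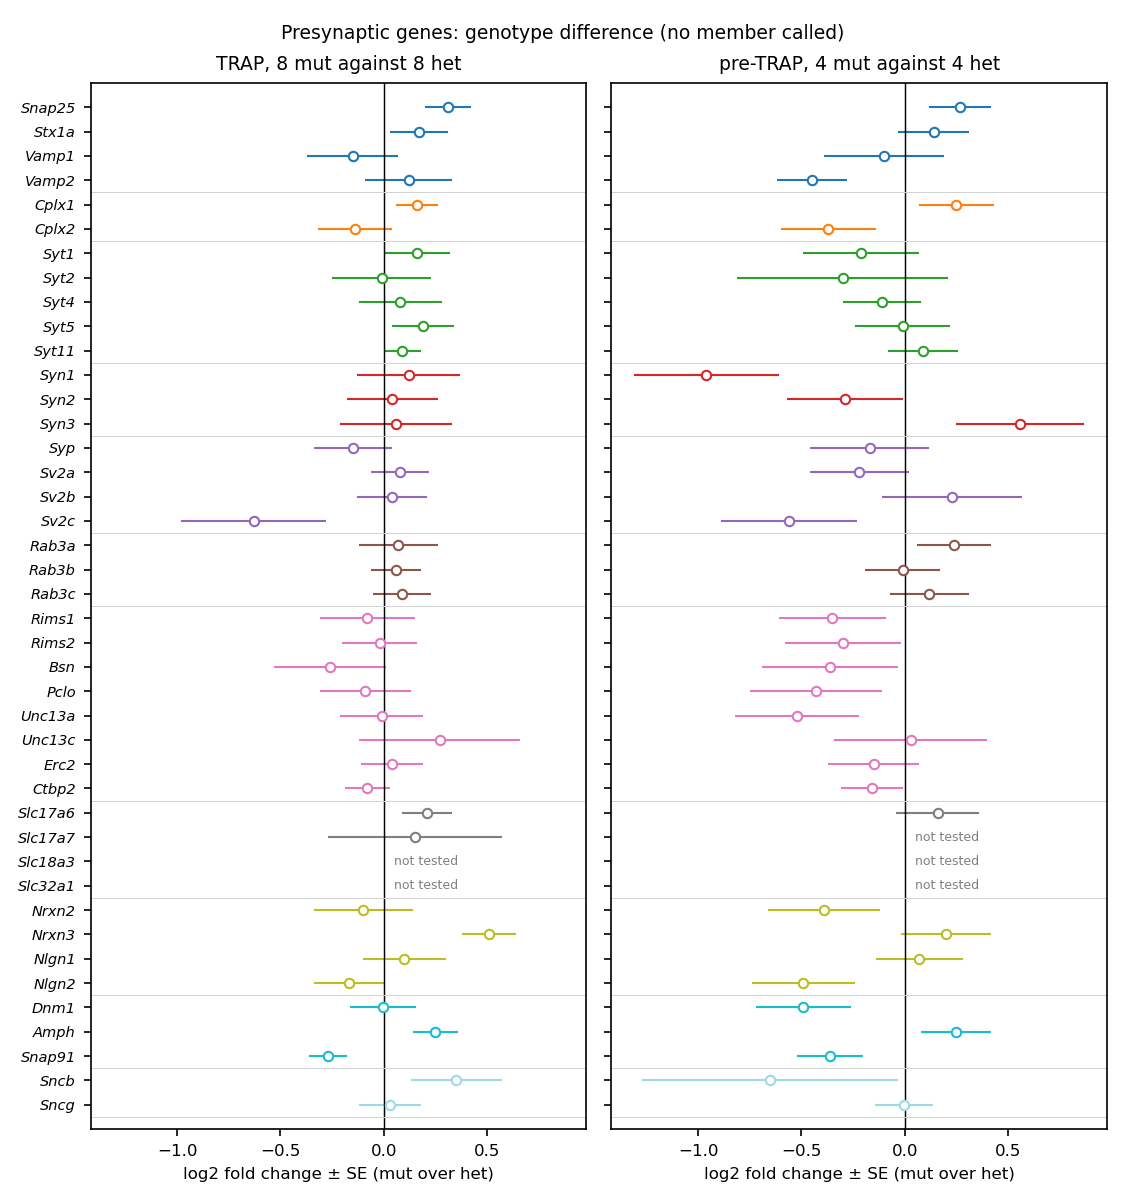
Log2 fold change of each member in mut over het libraries, with its standard error, in TRAP (left, 8 against 8 libraries) and in pre-TRAP (right, 4 against 4); all points are open because no member was called. In TRAP the points stay within -0.63 and 0.51, and in pre-TRAP they spread from -0.96 for Syn1 to 0.56 for Syn3 with wider errors.

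In pre-TRAP, 39 members were tested over 4 mut and 4 het libraries, and none was called. Of all 21954 genes tested, 0% were called higher and 0.00455% lower. At an unadjusted p under 0.05 there were 3 members, against 4.77% of all genes, and DESeq2 and limma voom called no member. The median log2 fold change was -0.16, against -0.03 for all genes, with 13 positive and 26 negative. Syn1 had the greatest difference: the 4 mut libraries were at 0.434, 0.92, 1.07 and 1.47 CPM, and the 4 het libraries at 1.15, 1.18, 1.81 and 3.22 CPM. Mut replicate 18 lay inside the het range, and the difference of -0.96 ± 0.35 (adjusted p = 0.837) was -0.63 without het replicate 17. Vamp2 was at 20.7, 21.1, 23.5 and 30.5 CPM in mut libraries and at 26.7, 30.8, 34.8 and 38.1 CPM in het libraries (-0.45 ± 0.17), and the difference was -0.29 without het replicate 19. Dnm1 was at 14.7, 15.4, 15.7 and 18.5 CPM in mut libraries and at 14.6, 16.7, 28.7 and 30.2 CPM in het libraries (-0.49 ± 0.23). For Dnm1 the difference lay in het replicates 17 and 19, and without replicate 19 it was -0.24. Nlgn2 differed by -0.49 ± 0.25, with the same het replicates high at 24.5 and 30.5 CPM and the other 6 libraries at 13.3 to 16.2 CPM, and by -0.17 without replicate 19. Snap91 differed by -0.36 ± 0.16, the same sign as in TRAP. All 5 had an adjusted p of 0.837. Of the other presynaptic genes, 0 of 71 tested in TRAP and 0 of 69 tested in pre-TRAP were called between the genotypes by edgeR.

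The difference between the genotype effects in TRAP and in pre-TRAP was called for no member by edgeR, DESeq2 or limma voom, and edgeR called 0% of 24242 genes in either direction; at an unadjusted p under 0.05 there was 1 member, Syn1, against 1.25% of all genes. Syn1 had the smallest p, with an interaction of 1.09 ± 0.47 (adjusted p = 1), from 0.12 in TRAP and -0.96 in pre-TRAP in the separate fits. Sncb followed at 1.04 ± 0.57 (adjusted p = 1); it was at 2 to 22 counts per pre-TRAP library, which limits its precision, and its interaction was 0.05 in experiment 1 and 1.80 in experiment 2.

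Levels of some members also differed between experiments, a batch that is balanced over the genotypes. Few members were called in either method, and leaving out 1 library moved several of these counts. They are therefore not read as a difference between the members and all genes tested. In TRAP, experiment 2 was higher than experiment 1 for 2 of 40 members and lower for 3. Of all genes tested, 14.1% were called higher and 8.81% lower. At an unadjusted p under 0.05 there were 10 members, against 34.5% of all genes. Nrxn2 was at 4.88 to 15.6 CPM in experiment 2, median 10.4, and 3.57 to 7.26 CPM in experiment 1, median 4.47. Replicates 1, 2 and 14 of experiment 2 reached over 13 CPM, and the log2 difference was 1.14 ± 0.24 (adjusted p = 0.00139). Dnm1 was higher in experiment 2 by 0.48 ± 0.16 (adjusted p = 0.0355), but the call ended without any 1 of 8 libraries, het replicates 1, 5 and 12 or mut replicates 2, 6, 10, 13 and 14 (adjusted p 0.0568 to 0.106). Sncg was at 841 to 1723 CPM in experiment 2 and 1403 to 2626 CPM in experiment 1 (-0.50 ± 0.15, adjusted p = 0.0234), and lost its call without mut replicate 13 (0.0579). Snap25 was at 75.3 to 122 CPM in experiment 2 and 95 to 166 CPM in experiment 1 (-0.40 ± 0.11, adjusted p = 0.00899). Snap91 was at 53 to 79.9 CPM in experiment 2 and 67.4 to 99.5 CPM in experiment 1 (-0.29 ± 0.09, adjusted p = 0.0237), and not called without mut replicate 8 (0.0527) or with no filter on low counts (0.07). Of the 14 neuron markers, 3 were lower and none higher in experiment 2 of TRAP, and their part in these differences was not tested.

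In pre-TRAP, experiment 2 was higher for 2 of 39 members and lower for 1, against 9.74% and 4.97% of all genes; at an unadjusted p under 0.05 there were 4 members, against 28.8% of all genes. Cplx1 was at 9.28, 10.1, 10.9 and 11.3 CPM in experiment 2 and at 4.34, 6.18, 6.53 and 7.51 CPM in experiment 1. All 4 libraries of experiment 2 were above all 4 of experiment 1 (0.78 ± 0.18, adjusted p = 0.0114), though the adjusted p was 0.051 without mut replicate 20. Sncg was at 122, 137, 151 and 161 CPM in experiment 2 and at 215, 232, 243 and 248 CPM in experiment 1, again without overlap and in the same direction as in TRAP (-0.71 ± 0.14, adjusted p = 0.00456). Nrxn2 was at 1.83, 2.16, 2.33 and 3.02 CPM in experiment 2 and at 0.888, 1.1, 1.15 and 2.07 CPM in experiment 1, overlapping at het replicate 19 (0.89 ± 0.27, adjusted p = 0.0452). That call ended without any 1 of 6 libraries, mut replicates 18, 20, 22 and 24 and het replicates 17 and 21 (adjusted p 0.101 to 0.167).

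Whether the genotype effect in TRAP differed between experiments was tested by an interaction. No member was called by edgeR, DESeq2 or limma voom, and edgeR called 0% of 21577 genes in either direction; at an unadjusted p under 0.05 there was 1 member, Rims1, against 2.11% of all genes. The median genotype difference of the 40 members was 0.17 in experiment 2 and -0.04 in experiment 1, against -0.00 for all genes in each. Of the 40, 34 were positive in experiment 2 and 17 in experiment 1. TRAP het replicate 3, of experiment 2, had the lowest neuron level of the TRAP libraries (7.27) and was the lowest of them for 15 members. Its part in these medians was not tested. The 2 smallest p were those of Rims1 (0.89 ± 0.42) and Syt2 (0.90 ± 0.45), both with an adjusted p of 0.97. Syt2 was at 4.05, 4.58, 4.67 and 5.8 CPM in the mut and at 1.74, 2.62, 4.88 and 4.89 CPM in the het libraries of experiment 2. In experiment 1 it was at 2.36, 2.83, 3.57 and 4.16 CPM in the mut and at 3, 3.21, 4.96 and 6.27 CPM in the het libraries. The genotypes overlapped in both experiments.

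Within a method, some libraries were high or low for many members. TRAP het replicate 3 was the lowest TRAP library for 15 of the 40 tested members, with a median deviation of -0.39 on the log2 scale from each member's TRAP median; it was also the lowest in neuron level. TRAP mut replicate 8 was above the TRAP median for 34 members. Among pre-TRAP libraries, het replicates 17 and 19 were the highest for 11 members each, and het replicate 23 was the lowest for 14; their neuron levels were 5.54, 5.70 and 5.00, the last being the lowest of all pre-TRAP libraries. The part of neuron content in this pattern was not tested. The coefficient of variation over the 16 TRAP libraries, which describes spread among pools, ran from 11.4% for Ctbp2 to 60.4% for Slc17a7, with a median of 26.3%.

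**Figure D5:**
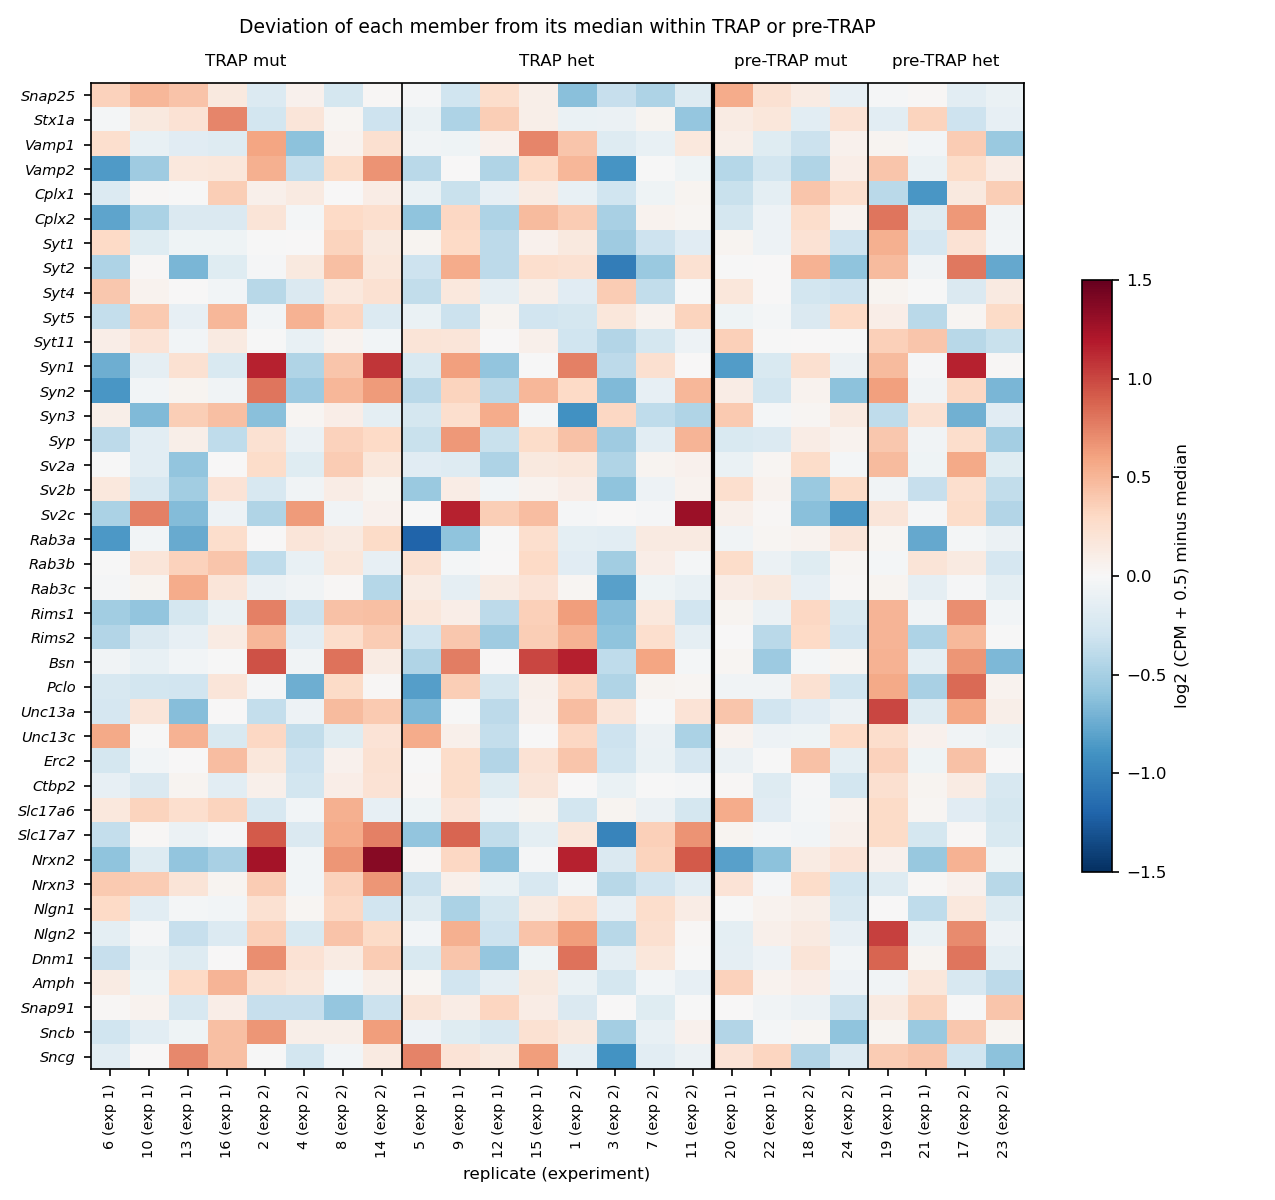
Deviation of log2 (CPM + 0.5) of each of the 40 tested members from its median within TRAP or within pre-TRAP, for each library, ordered by group and experiment; red is above and blue below the median. TRAP het replicate 3 is blue for most members, and pre-TRAP het replicates 17 and 19 are red for many. Nrxn2 and Syn1 are red in TRAP mut replicates 2 and 14 and in TRAP het replicate 1, all of experiment 2.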

How the data were processed

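PolyA RNA was sequenced as 24 SMARTer libraries, each from pooled tissue, per the labels' protocols. The labels do not say whether any TRAP and pre-TRAP libraries came from the same pool, and the tests treated all libraries as independent. The authors deposited raw counts per Ensembl gene, unnormalised. STAR, DESeq2 and the build GRCm38.p5 appear in the submitters' processing notes; tool versions, annotation, counting and strand settings are not given in the sources at hand. Symbols were matched for 53274 of 53946 identifiers. Replicates are numbered as in the labels, and p-values rest on the spread between libraries, each from pooled tissue. Replicate pairs differed beyond counting error (chi-square per degree of freedom 26.3 to 260.6 over 68 pairs).

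Under R 4.3.3, edgeR 4.0.16 was run on the counts with TMM, filterByExpr (minimum count 10 on group-by-experiment cells), quasi-likelihood F tests, experiment or genotype as covariate, and Benjamini-Hochberg adjustment over all genes tested. The SE given with edgeR fits was derived as the absolute log2 fold change divided by the square root of the F statistic. CPM were TMM-normalised over 24 libraries, and log2 levels used a pseudocount of 0.5. Fits were tested on simulated counts. Alternatives used DESeq2 1.42.0, limma 3.58.1, other size factors, no filter, other covariates, subsets and each library left out.

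The members and lists were chosen with earlier results of these data known. By the naming rule, values were given in full for called members with at least 2-fold change and 2 CPM (up to 10 each way), for the 5 smallest p in each genotype comparison, called members between experiments, and the 2 smallest p in interactions.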

Additional observations from a re-analysis of the deposited data

How the results depend on the processing

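In TRAP against pre-TRAP, 27 to 32 members were called higher and 2 to 4 lower under every alternative run, and every call of the 12 members described in full kept its direction and its side of the threshold. Genotype and interaction counts stayed at 0 members in each of their alternatives, and no direction of a member described in full reversed. Over all genes, the TRAP genotype calls (4 higher, 12 lower) moved more: 57 and 171 with the neuron covariate, 14 and 39 with DESeq2, 7 and 24 with limma voom, 8 and 19 without a filter, 8 and 27 in 1 fit of all libraries, 0 and 4 without the experiment covariate, 0 and 2 in experiment 1, and 1 and 1 in experiment 2. Leaving out 1 library gave 2 to 5 higher and 4 to 13 lower: 4 lower without mut replicates 2, 8 or 13 or het replicates 3, 7, 11 or 12, 5 without mut replicates 10, 14 or 16, and 7 without mut replicate 4 or het replicate 15, with 2 higher without mut replicates 2 or 8 or het replicates 11 or 12. In TRAP, limma voom called 5 members higher in experiment 2, against 2, and leaving out 1 library gave 1 to 4 higher and 2 to 3 lower. It gave 1 without het replicates 1, 5 or 12 or mut replicates 2, 6, 10, 13 or 14, and 4 without het replicates 9 or 15. In pre-TRAP, DESeq2 and limma voom called 2 members lower in experiment 2, against 1, and leaving out 1 library gave 0 to 3 higher and 1 to 2 lower. It gave 0 higher without mut replicate 20, 1 higher without het replicates 17 or 21 or mut replicates 18, 22 or 24, 3 higher without het replicate 23, and 2 lower without het replicate 17 or mut replicate 22. The cause of these moves was not tested. No paired analysis was possible because the groups share no replicate numbers and no label ties one library to another. Slc18a3, Slc32a1, Slc17a7, Sncb and Unc13c had few counts in some or all libraries, which limits the precision of their values.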
